A study of Mus musculus with 6 samples.

Results

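Complex I genes, taken as the rows whose symbol starts with Nduf, made up 45 of the 21878 rows in each library, and 44 of them could be tested. They were 7 core subunits, 29 accessory subunits, 7 assembly factors and 2 rows kept apart, Ndufa4 and Ndufa4l2. The libraries came from bone marrow (BM) HSCs sorted as CD34-Flk2-Lineage-Sca1+c-Kit+ cells from WT mice. The 3 control libraries were from vehicle-treated mice and the 3 IGF1 libraries from mice that had received IGF1 subcutaneously, once, at 200 µg/kg, 1 day earlier. The treatment label and the design text name IGF-1, whereas the extraction text of the labels mentions IR mice. The ages of the mice are not given in the sources used here, nor is whether a library held cells of a single mouse or of several, so the p-values measure the spread between libraries only.

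Complex I (NADH:ubiquinone oxidoreductase) is the entry enzyme of the mitochondrial respiratory chain. Its peripheral arm oxidizes NADH and passes the electrons along flavin and iron-sulfur clusters to ubiquinone, and its membrane arm pumps protons. Core subunits carry out this chemistry, accessory subunits surround and stabilize the core, and assembly factors help to build the enzyme but are not part of it. The core subunits of the membrane arm are encoded by mitochondrial DNA, and 0 rows of mitochondrially encoded genes were listed. Quiescent HSCs are known for a low reliance on oxidative phosphorylation, which rises as they become active and differentiate.

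Values were FPKM, a measure of fragments per gene that takes account of gene length and sequencing depth. The steps between the values of a gene gave back whole reads, and with them a depth of 15879352, 11429050 and 15973581 reads for the controls (replicates 1 to 3) and of 12262616, 11206746 and 12756177 reads for the IGF1 libraries. The controls were not alike. Over genes, the mean chi-squared per gene between the reads of a pair of libraries, which counting noise alone would put near 1, was 1.52 between control replicates 1 and 3 and 1.69 to 1.89 between IGF1 libraries. It was 229 to 231 between control replicate 2 and the other controls, against 24.6 to 27.96 between control replicate 2 and the IGF1 libraries. Control replicate 2 thus lay nearer to the IGF1 libraries than to its own group, and results are given with and without it. Of the genes that define the gate, Kit had 24.2 to 105 FPKM. Transcripts of surface markers that the gate excludes were present, with 230 to 640 FPKM for Cd34 and 117 to 188 FPKM for Flt3 (Flk2). The HSC genes Slamf1, Fgd5 and Mecom were low, at 0.277 to 4.10 FPKM.

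The groups were compared with limma on log2(FPKM + 1) over 10449 genes. Calls needed more than a 2-fold difference together with a p under 0.05 after Benjamini-Hochberg adjustment. By these thresholds, 1.98% of all genes tested were called higher in IGF1 libraries and 4.63% lower. The groups did not overlap in 59.4% of all genes tested. Without control replicate 2, 12.3% of genes were called higher and 20.6% lower. Fold changes on this scale slightly understate those of low genes. Over all genes tested the median log2 fold change was -0.18, and 0.06 after scaling libraries to their 75th percentile.

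The change from the vehicle to the IGF1 group is described by class, and a difference between the classes was not tested. Of the 44 Nduf genes, 1 was called, the core subunit Ndufs1, which was lower. The median log2 fold change of accessory subunits was 0.91, with 27 of 29 above 0, but none of them passed the test. The other core subunits and all assembly factors had log2 fold changes within 1 of 0. After trends on gene length and GC content were removed from each library, the accessory median was 0.02, with 15 of 29 above 0. Only mRNA was measured, so these values do not give the amount or activity of the enzyme, and in bulk libraries fewer cells of a type and less RNA per cell cannot be told apart.

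**Figure D1:**
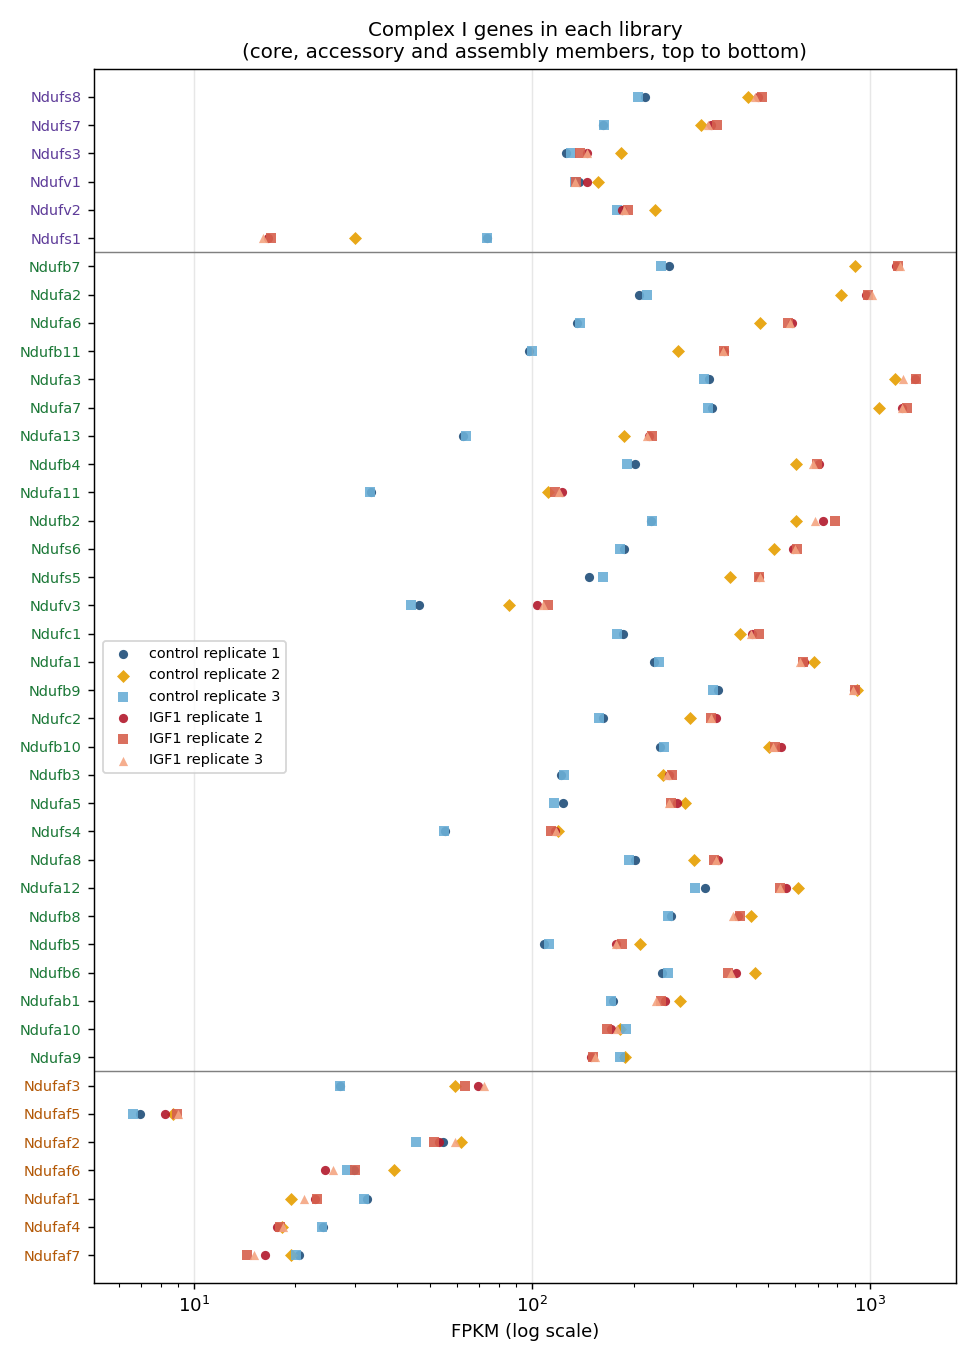
Expression of core, accessory and assembly genes in each of the 6 libraries. The x axis gives FPKM on a log scale, each row is a gene, each point a library (circles, squares and triangles for replicates, orange diamonds for control replicate 2), and grey lines separate the classes. In 27 of 29 accessory genes the orange diamond lies nearer to the IGF1 libraries than to the other controls, and in Ndufs1 the IGF1 libraries, at 16.1 to 17.0 FPKM, lie below all controls.

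Promoter sequences are shown for 5 members with which the classes can be compared, since many respiratory chain genes share promoter elements. RefSeq sequences (GRCm38.p6) of 250 bases before to 50 bases after the gene start were matched by symbol to 39 of the 45 Nduf rows. The motifs searched on both strands were GCGCANGCG of NRF1, CCGGAAG of the ETS family, AAGATGGC of YY1 and CAAGGTCA of the estrogen-related receptors, factors known for their place in the transcription of respiratory chain genes. The NRF1 letters read almost the same on both strands, so a palindromic site can match at neighbouring positions. The lines below give the 150 bases before the gene start, 5′ to 3′ on the strand of the gene, with matches in capitals. Ndufb7 (chr8:83566608-83566757, plus strand) had the largest accessory fold change and an ETS match. Ndufb4 (chr16:37654369-37654518, minus strand), Ndufa11 (chr17:56717612-56717761, plus strand) and Ndufa8 (chr2:36049339-36049488, minus strand) are accessory members with NRF1 matches. Ndufs3 (chr2:90904722-90904871, minus strand) is a core member with an ETS match.
Ndufb7: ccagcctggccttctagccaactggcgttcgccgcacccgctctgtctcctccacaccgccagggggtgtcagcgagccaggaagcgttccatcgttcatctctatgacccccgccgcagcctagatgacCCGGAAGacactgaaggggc
Ndufb4: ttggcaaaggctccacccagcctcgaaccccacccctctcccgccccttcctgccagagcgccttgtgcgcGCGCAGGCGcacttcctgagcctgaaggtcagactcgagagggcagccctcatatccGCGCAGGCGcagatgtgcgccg
Ndufa11: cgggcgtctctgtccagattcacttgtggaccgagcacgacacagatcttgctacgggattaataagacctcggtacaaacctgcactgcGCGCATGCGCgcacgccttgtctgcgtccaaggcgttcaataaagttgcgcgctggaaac
Ndufa8: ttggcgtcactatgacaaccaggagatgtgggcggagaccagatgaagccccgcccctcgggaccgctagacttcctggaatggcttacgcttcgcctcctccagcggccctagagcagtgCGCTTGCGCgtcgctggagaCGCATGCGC
Ndufs3: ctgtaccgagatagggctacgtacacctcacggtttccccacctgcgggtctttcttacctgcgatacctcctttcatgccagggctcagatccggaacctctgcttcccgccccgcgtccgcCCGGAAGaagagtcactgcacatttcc
NRF1 letters were found in 10 of the 39 promoters (25.6%), against 6.25% of all 32851 promoters in the table, which include genes of every kind. They were in 8 of 27 accessory and 2 of 6 assembly promoters and in 0 of 5 core promoters. YY1 letters were in 7 of the 39 (17.9%), against 2.75% of all promoters, ETS letters in 5 (12.8%), against 8.86%, and those of the estrogen-related receptors in 1 (2.56%), against 1.56%. These matches describe the letters in these windows only. NRF1 matches occurred both in members with high fold changes (Ndufb4, log2 fold change 1.28) and in members with low ones (Ndufaf4, -0.28).

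Ndufs1, the largest core subunit, which carries iron-sulfur clusters at the electron entry of the peripheral arm, was the only Nduf gene called. It lies on chromosome 1 (GRCm38, chr1:63143596-63176833, minus strand, GENCODE M21). Its level was 73.9, 29.99 and 73.6 FPKM in the controls, in the order of replicates 1 to 3, and 16.6, 17.0 and 16.1 FPKM in the IGF1 libraries. All IGF1 libraries were below all controls, and control replicate 2 stood between the rest of the controls and the IGF1 group. Ndufs1 fell by 1.67 on the log2 scale (standard error 0.36, adjusted p = 0.0395 from limma; control 59.2 ± 25.3 and IGF1 16.5 ± 0.446 FPKM, SD, n = 3 each). The reads behind these values numbered 3527, 1031 and 3535 in the controls and 612, 572 and 617 in the IGF1 libraries. Leaving out control replicate 2 gave -2.09 on the log2 scale (adjusted p = 4.78e-11 from limma). That p rests on libraries that differ within groups by little more than counting noise (mean chi-squared 1.52 to 1.89). The call was lost when any single library other than control replicate 2 was left out, with adjusted p between 0.147 and 0.164 from limma. In these fits 0 of the 10449 genes tested were called, so the loss was not particular to Ndufs1. After trends on gene length and GC content were removed from each library the log2 fold change was -1.03 (adjusted p = 0.0351 from limma).

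Core subunits further along the electron path were not all alike. Ndufs8, an iron-sulfur subunit of the ubiquinone-reducing part, had 216, 437 and 206 FPKM in controls and 467, 479 and 457 FPKM in IGF1 libraries. Ndufs7, which holds the last iron-sulfur cluster before ubiquinone, had 162, 317 and 164 FPKM in controls and 339, 354 and 331 FPKM in IGF1 libraries. In both genes control replicates 1 and 3 were low, and control replicate 2 was just below the IGF1 libraries, so that the groups did not overlap. Their log2 fold changes were 0.80 (standard error 0.31, adjusted p = 0.0838) and 0.74 (standard error 0.28, adjusted p = 0.0810), and neither passed the test of limma. Without control replicate 2 they were 1.15 and 1.06, and both were called. With length and GC trends removed they were 0.20 (adjusted p = 0.164) and 0.013 (adjusted p = 0.907) from limma, and neither was called.

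Ndufs3, a core subunit near the ubiquinone site, had 127, 184 and 131 FPKM in controls and 145, 139 and 145 FPKM in IGF1 libraries. Control replicate 2 was the highest library for Ndufs3. Ndufv1, which binds NADH and the flavin, had 137, 157 and 134 FPKM in controls and 145, 135 and 134 FPKM in IGF1 libraries. Ndufv2, the iron-sulfur partner of Ndufv1, had 184, 232 and 179 FPKM in controls and 185, 193 and 187 FPKM in IGF1 libraries. The groups overlapped in these 3 genes, whose log2 fold changes ran from -0.06 (Ndufv2, standard error 0.14) to -0.02 (Ndufs3, standard error 0.17). These differences were smaller than their standard errors, and their sign turned positive after scaling to the 75th percentile (0.21 to 0.25). After removal of length and GC trends Ndufs3 had -0.67 (adjusted p = 0.0297) and Ndufv1 -0.29 (adjusted p = 0.0447), which passed the adjusted p of limma but not the fold threshold, and Ndufv2 had 0.32 (adjusted p = 0.125). Without control replicate 2 the value of Ndufs3 was 0.15 (adjusted p = 0.00154 from limma), on the other side of 0.

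Among core genes the median log2 fold change was -0.04, with 2 of 7 above 0, 1 called lower and 0 called higher by limma. At an unadjusted p under 0.05 together with the fold threshold, 0 core genes were higher and 1 lower, against 666 and 1077 of all 10449 genes tested. Among core genes voom on the recovered reads also called Ndufs1 alone. The groups did not overlap in 3 of 7 core genes (42.9%, against 59.4% of all genes tested). Ndufs1 stood apart from the other core genes within each library. Its FPKM divided by the mean FPKM of the other 6 core genes was 0.432, 0.116 and 0.434 in the controls and 0.0673, 0.0678 and 0.0661 in the IGF1 libraries. As a share of the summed core FPKM, Ndufs1 made up 6.71%, 1.89% and 6.75% in controls and 1.11%, 1.12% and 1.09% in IGF1 libraries.

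Accessory subunits were the most abundant class, with mean levels of 83.1 to 971 FPKM, against 37.8 to 377 FPKM for core genes and 8.06 to 54.3 FPKM for assembly factors. Their fold changes lay above 0 in 27 of 29 genes, and above 1 on the log2 scale in 12 genes. Limma called 0 of the 29, and voom also called 0. At an unadjusted p under 0.05 together with the fold threshold, 12 were higher and 0 lower. Of all 10449 genes tested, 666 were higher and 1077 lower by the same measure. The 12 accessory genes had adjusted p from 0.0535 to 0.0812 in limma. The groups did not overlap in 20 of 29 accessory genes, 18 with higher and 2 with lower IGF1 values. In the other 9 control replicate 2 was above every IGF1 library, while control replicates 1 and 3 were below every IGF1 library. Without control replicate 2 the median log2 fold change was 1.31, and 21 of 29 accessory genes were called higher and 0 lower. Of all genes tested 12.3% were then called higher and 20.6% lower.

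**Figure D2:**
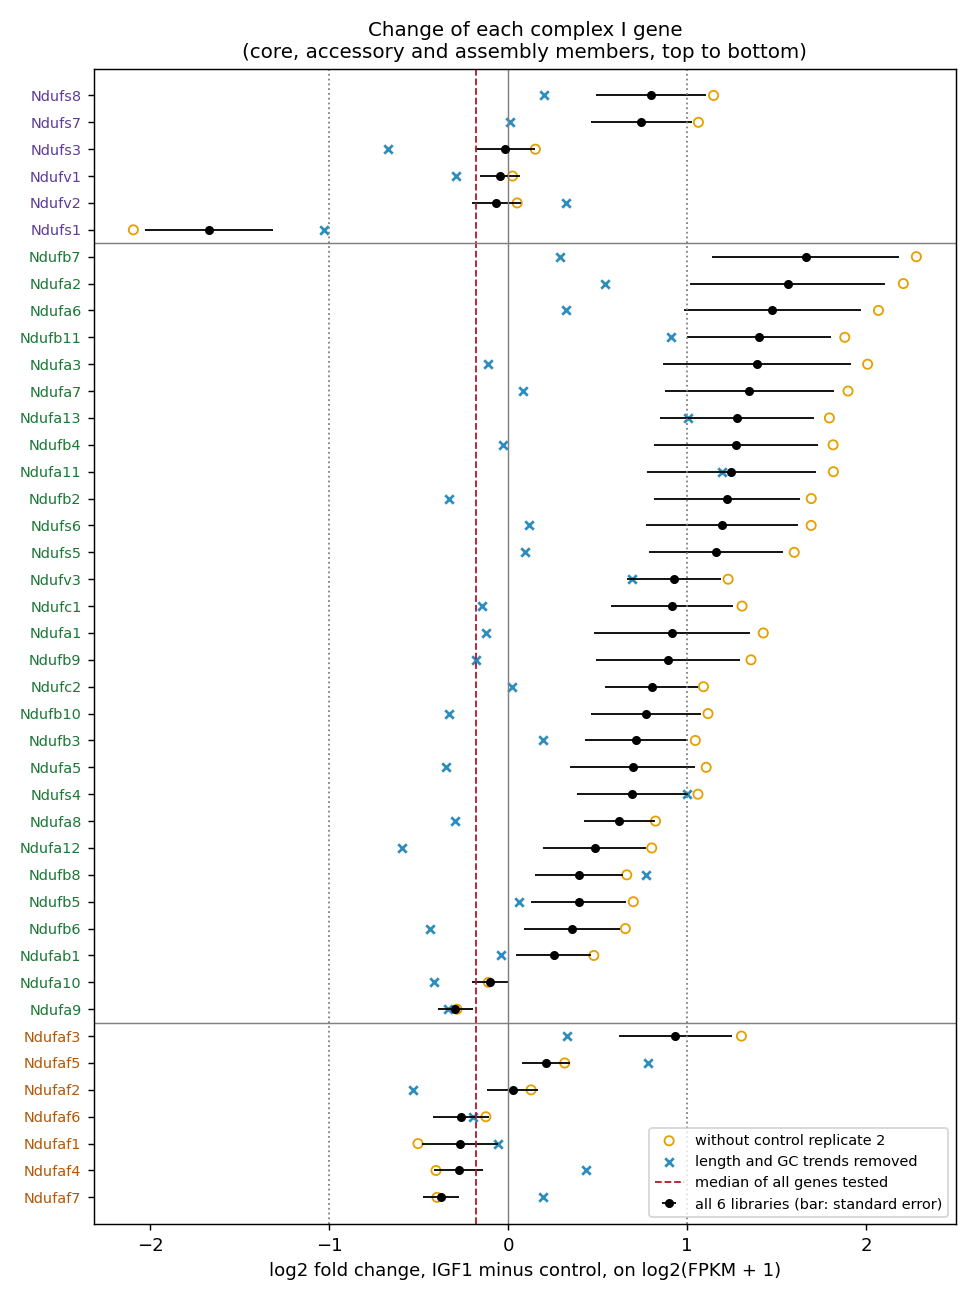
Log2 fold change of complex I genes, IGF1 minus control, on the log2(FPKM + 1) scale. Black points with bars give the value and standard error over all 6 libraries, orange circles the value without control replicate 2 and blue crosses the value after length and GC trends were removed; dotted lines mark a fold change of 2, and the red dashed line the median of all genes tested (-0.18). Black points of accessory genes lie mostly right of 0 (median 0.91), whereas their blue crosses scatter about 0 (median 0.02).

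Ndufb7, a membrane arm subunit on the side of the intermembrane space, had 255, 900 and 241 FPKM in the controls. It had 1193, 1208 and 1225 FPKM in the IGF1 libraries (control 465 ± 377 and IGF1 1208 ± 15.7 FPKM, SD, n = 3 each). Its log2 fold change of 1.66 was the highest of all Nduf genes (standard error 0.52, adjusted p = 0.0598 from limma). Without control replicate 2 it was 2.28 (adjusted p = 3.01e-12 from limma), among libraries that differ within groups by little more than counting noise. With length and GC trends removed it was 0.29 (adjusted p = 0.103 from limma). Ndufa2, a peripheral arm subunit with a thioredoxin-like fold, had 208, 822 and 220 FPKM in controls and 973, 983 and 1015 FPKM in IGF1 libraries. Ndufa6, a peripheral arm subunit that binds the acyl carrier protein, had 136, 473 and 139 FPKM in controls and 586, 573 and 581.6 FPKM in IGF1 libraries. In each of these genes control replicates 1 and 3 stood well below the other 4 libraries. The log2 fold changes were 1.56 for Ndufa2 (standard error 0.54, adjusted p = 0.0704) and 1.48 for Ndufa6 (standard error 0.50, adjusted p = 0.0661), from limma. With length and GC trends removed they were 0.54 and 0.32.

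The X-linked membrane arm subunit Ndufb11 had 98.3, 271 and 100 FPKM in controls and 370, 369 and 367 FPKM in IGF1 libraries. On the log2 scale its fold change was 1.40 (standard error 0.40, adjusted p = 0.0535 from limma). Ndufa3, a small membrane arm subunit, had 334, 1188 and 323 FPKM in controls and 1355, 1370 and 1253 FPKM in IGF1 libraries. Ndufa7, of the peripheral arm, had 340, 1061 and 333 FPKM in controls and 1243, 1287 and 1245 FPKM in IGF1 libraries. Both followed the pattern of Ndufb7, with control replicate 2 below, but close to, the IGF1 libraries. Their log2 fold changes were 1.39 (standard error 0.53) for Ndufa3 and 1.35 (standard error 0.47) for Ndufa7. With length and GC trends removed they were -0.11 and 0.08. The next 6 accessory genes, Ndufa13, Ndufb4, Ndufa11, Ndufb2, Ndufs6 and Ndufs5, had log2 fold changes from 1.28 down to 1.16.

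At the other end of the class stood Ndufa9 and Ndufa10, the only accessory genes with values below 0. Ndufa9, which sits near the joint of the arms and binds a nucleotide cofactor, had 187, 188 and 182 FPKM in controls and 149, 152 and 153 FPKM in IGF1 libraries. The 3 controls agreed closely here, control replicate 2 included, and the groups did not overlap. The value of Ndufa9 was -0.29 on the log2 scale (standard error 0.10, adjusted p = 0.0631 from limma), and -0.022 with 75th percentile scaling (adjusted p = 0.892). Median-of-ratios scaling gave -0.12 (adjusted p = 0.42), and quantile normalization -0.45 (adjusted p = 0.0499), short of the fold threshold. Ndufa10, a membrane arm subunit with a nucleoside kinase-like fold, had 182, 182 and 190 FPKM in controls and 171, 167 and 179 FPKM in IGF1 libraries, and a log2 fold change of -0.10 (standard error 0.10). With 75th percentile scaling the value of Ndufa10 was 0.17.

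Ndufab1, the mitochondrial acyl carrier protein, which also serves fatty acid synthesis, had 173, 275 and 171 FPKM in controls and 247, 241 and 233 FPKM in IGF1 libraries. Ndufb6, a membrane arm subunit, had 242, 458 and 252 FPKM in controls and 400, 381 and 387 FPKM in IGF1 libraries. In both genes control replicate 2 was the highest library, and the log2 fold changes were 0.26 (standard error 0.21) and 0.36 (standard error 0.27). Without control replicate 2 they were 0.48 and 0.66, and with length and GC trends removed -0.04 and -0.44. The median log2 fold change was 0.93 for the 9 peripheral arm members and 0.91 for the 19 membrane arm members. With length and GC trends removed the medians were 0.12 and -0.03, and the difference between the arms was not tested.

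Summed over the class, the accessory genes had 5426, 13336 and 5375 FPKM in controls and 14648, 14726 and 14417 FPKM in IGF1 libraries. Core genes summed to 1101, 1583 and 1091 FPKM in controls and 1495, 1517 and 1473 FPKM in IGF1 libraries. Assembly factors summed to 196, 226 and 183 FPKM in controls and 212, 209 and 221 FPKM in IGF1 libraries. Control replicate 2 thus had the highest sum of all libraries for core genes and assembly factors, and for accessory genes it was between the groups. The ratio of accessory to core FPKM, which does not depend on scaling between libraries, was 4.93, 8.42 and 4.93 in controls and 9.80, 9.71 and 9.79 in IGF1 libraries. All Nduf rows together took 1.61%, 2.55% and 1.59% of the summed FPKM of all rows in controls and 2.54%, 2.57% and 2.51% in IGF1 libraries. The groups did not overlap in the ratio but overlapped in this share, where control replicate 2 lay among the IGF1 libraries.

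**Figure D3:**
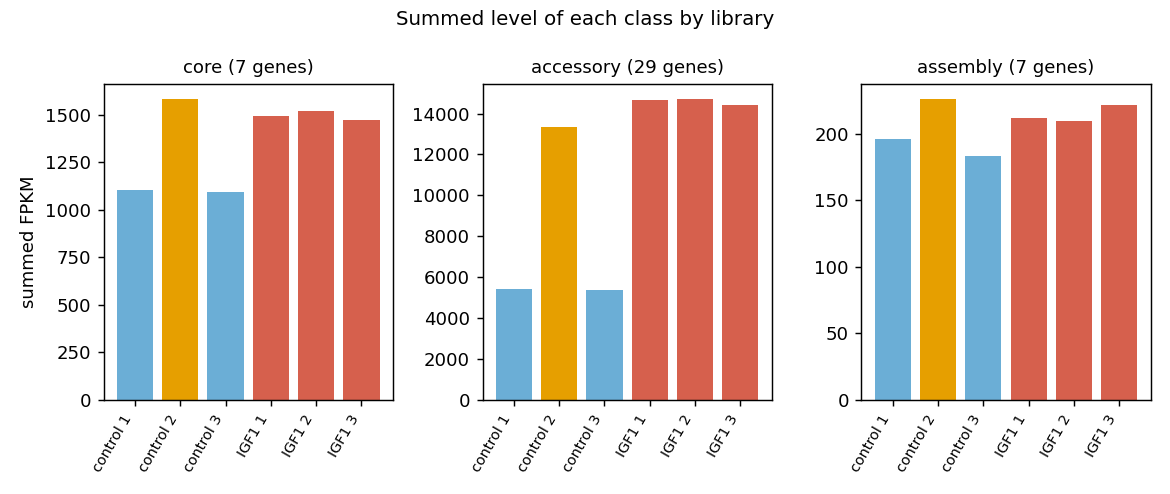
Summed FPKM of the core, accessory and assembly genes in each library. Each bar is a library, blue for control replicates 1 and 3, orange for control replicate 2 and red for IGF1; each panel has its own y axis, which starts at 0. Accessory sums of control replicates 1 and 3 lie at 5375 to 5426, against 13336 to 14726 in the other libraries.

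Assembly factors showed no common direction. The median log2 fold change of the 7 was -0.26, with 3 above 0 and 0 called by limma or by voom. At an unadjusted p under 0.05 together with the fold threshold, 0 were higher and 0 lower, against 666 and 1077 of all 10449 genes tested. The median was near 0 after 75th percentile scaling (0.0030) and 0.19 after removal of length and GC trends. Ndufaf3, which acts early on the ubiquinone-reducing part, had 27.1, 59.4 and 27.1 FPKM in controls and 69.3, 63.6 and 72.4 FPKM in IGF1 libraries, with groups that did not overlap. On the log2 scale the fold change of Ndufaf3 was 0.94 (standard error 0.32, adjusted p = 0.0666 from limma), and without control replicate 2 it was the only assembly factor called (1.30). Ndufaf4, the partner of Ndufaf3, had 24.2, 18.3 and 23.9 FPKM in controls and 17.6, 17.9 and 18.3 FPKM in IGF1 libraries. The log2 fold change of Ndufaf4 was -0.28 (standard error 0.14). The partners therefore had values on opposite sides of 0, although the fold change of Ndufaf4 turned positive (0.43) once length and GC trends were removed.

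Ndufaf7, a methyltransferase, had 20.5, 19.4 and 20.1 FPKM in controls and 16.2, 14.4 and 15.1 FPKM in IGF1 libraries. The 3 controls were alike and above all IGF1 libraries. Its log2 fold change of -0.37 (standard error 0.10) had an adjusted p of 0.0490 from limma but did not reach a fold change of 2, and it was 0.19 after trends were removed. It was -0.11 with 75th percentile scaling and -0.03 with quantile normalization, and voom gave an adjusted p of 0.0521. Ndufaf5, which hydroxylates Ndufs7, was the lowest member tested, with 6.94, 8.67 and 6.63 FPKM in controls and 8.22, 8.93 and 8.97 FPKM in IGF1 libraries. Ndufaf6, another early factor, had 29.9, 39.2 and 28.4 FPKM in controls and 24.5, 29.9 and 25.9 FPKM in IGF1 libraries. The groups overlapped for both, and the log2 fold changes were 0.21 (standard error 0.14) for Ndufaf5 and -0.26 (standard error 0.16) for Ndufaf6.

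Ndufaf2, a late factor related to Ndufa12, had 54.5, 61.9 and 45.5 FPKM in controls and 53.1, 51.5 and 59.3 FPKM in IGF1 libraries. The fold change of Ndufaf2 was 0.03 on the log2 scale (standard error 0.14). Ndufaf1, which builds the membrane arm together with Ecsit, Acad9, Tmem126b and Tmem186, had 32.5, 19.4 and 31.8 FPKM in controls and 22.8, 23.2 and 21.2 FPKM in IGF1 libraries. Control replicate 2 was the lowest library for Ndufaf1, and the log2 fold change was -0.27 (standard error 0.21). Of the rows kept apart, Ndufa4, now assigned to complex IV, had 781, 1035 and 741 FPKM in controls and 933, 962 and 908 FPKM in IGF1 libraries. Its log2 fold change was 0.15 (standard error 0.20), and -0.75 after length and GC trends were removed. Ndufa4l2, a relative of Ndufa4 induced in hypoxia, was listed at 0 in all 6 libraries and was not tested.

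Factors of complex I assembly outside the Nduf names (12 rows, all tested) showed a median of -0.63 on the log2 scale, with 4 above 0, 1 called lower and 0 called higher. The median was -0.31 with length and GC trends removed, -0.33 with quantile normalization and -0.37 with 75th percentile scaling, with 0 called in each. Without control replicate 2 it was -0.61, with 2 called higher and 3 lower, against 12.3% and 20.6% of all genes tested. The groups did not overlap in 10 of 12 (83.3%, against 59.4% of all genes tested). Acad9, an acyl-CoA dehydrogenase relative in the assembly complex of the membrane arm, had 24.0, 12.7 and 24.4 FPKM in controls and 7.96, 6.95 and 8.54 FPKM in IGF1 libraries. Acad9 fell by 1.23 on the log2 scale (standard error 0.26, adjusted p = 0.0402 from limma). The call was lost when any library other than control replicate 2 was left out, as were those of all genes. Acad9 was also sensitive to scaling. It fell short of a fold change of 2 with 75th percentile scaling (-0.97), quantile normalization (-0.93), trends removed (-0.68) or a pseudocount of 5 (-0.95). Tmem186, of the same complex, had 29.7, 8.22 and 28.1 FPKM in controls and 6.34, 5.001 and 6.25 FPKM in IGF1 libraries, at -1.56 on the log2 scale (standard error 0.48, adjusted p = 0.0576). The row 1810043H04Rik, an older symbol of Ndufaf8, had 87.6, 226 and 99.5 FPKM in controls and 263, 259 and 247 FPKM in IGF1 libraries. Its log2 fold change was 1.03 (standard error 0.36, adjusted p = 0.0712 from limma). It was 1.45 without control replicate 2 and -0.30 with length and GC trends removed. Ecsit, Tmem126b, Tmem70 and Foxred1 passed the adjusted p alone, with log2 fold changes of -0.70 to -0.58.

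Fold changes of the members moved with the length of the gene. A length was implied by the size of the steps in FPKM and is taken here as the length behind the values. Its rank correlation with the length of reference transcripts was 0.83. Some members differed widely, such as Ndufb2 with 247 bases implied against 4371 of the reference. Across the 43 members of the 3 classes, which share the same 6 libraries, Pearson's r between log2 fold change and log10 length was -0.62 (Spearman's rho -0.61). It was 0.45 (rho 0.46) between fold change and GC content and 0.65 (rho 0.66) between fold change and mean log2 FPKM. Over 10352 of the genes tested r was -0.28 with length and 0.39 with GC content. Accessory genes had a median length of 657 bases, core genes of 1623 bases and all genes tested of 3229 bases. The 15 shortest accessory genes had a median of 1.196 on the log2 scale and the 14 longest of 0.66.

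After the trends on length and GC content over all genes were removed from each library, the accessory median was 0.02, with 15 of 29 above 0 and 0 called. The median of all genes tested was then -0.05. The highest accessory values then belonged to genes of longer implied length, Ndufa11 (1.19), Ndufa13 (1.01), Ndufs4 (0.999) and Ndufb11 (0.91). For Ndufa11 the implied length was 2685 bases against 918 of its reference transcript, and for Ndufa13 2280 against 1251. For Ndufs4 it was 1548 against 1698 and for Ndufb11 1053 against 908. The 15 shortest accessory genes had a median of -0.11 in this fit, from 0.54 (Ndufa2) down to -0.59 (Ndufa12), and the 14 longest of 0.13, from 1.19 (Ndufa11) down to -0.44 (Ndufb6). Ndufs1 was the only Nduf gene called in this fit too. With quantile normalization the accessory median was 0.59. Whether the trends belong to the libraries or to the cells was not tested.

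**Figure D4:**
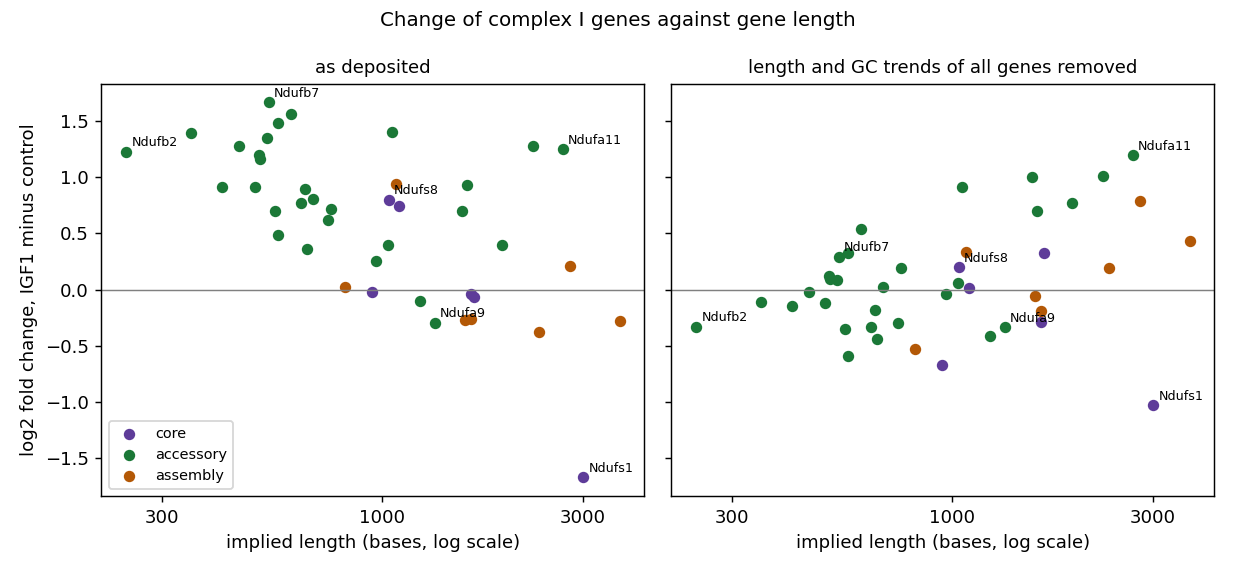
Log2 fold change of core, accessory and assembly genes against the implied gene length in bases on a log scale, as deposited (left) and after trends on length and GC content were removed (right). Each point is a gene, colored by class. On the left values are lower on the whole in longer genes (r = -0.62 over 43 members), with exceptions such as Ndufa13 (1.28) and Ndufa11 (1.25), and Ndufs1 is lowest; on the right Ndufs1, at -1.03, remains the lowest point.

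Other complexes of the respiratory chain gave the setting for these values. For the 4 genes of complex II the median log2 fold change was -0.21, with 0 called. The median was 0.78 for 12 genes of complex III (Uqcr, Uqcc and Cyc1 rows, 0 called), 1.24 for 15 genes of complex IV (Cox4 to Cox8 rows, 1 called higher) and 0.74 for 16 Atp5 genes (1 called higher). For 77 Mrpl and Mrps genes of the mitochondrial ribosome it was 0.36 (1 called higher). With length and GC trends removed the medians were -0.67 for complex II (1 called lower), -0.08 for complex III, 0.29 for complex IV, -0.05 for Atp5 genes (0 called in these 3) and 0.09 for genes of the mitochondrial ribosome (1 called higher and 1 lower). Without control replicate 2 the genes called higher were 6 of 12 for complex III, 13 of 15 for complex IV, 8 of 16 for Atp5 and 21 of 77 for the mitochondrial ribosome, where 2 were lower, and 1 of 4 genes of complex II was called lower. Over all genes tested 12.3% were called higher and 20.6% lower without control replicate 2. No test of a difference between groups of genes was made.

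Marker genes of other cells were measured in the same libraries, and 6 of those tested were called, in 2 of the lists. All 7 B cell markers tested had fold changes above 0 with 0 called, and their summed level was 121 to 498 FPKM in controls and 474 to 493 FPKM in IGF1 libraries. Of 7 neutrophil and monocyte markers tested 6 were below 0, and 4, S100a8, S100a9, Ngp and Camp, were called lower, with sums of 2678 to 2804 FPKM and 2763 to 2778 FPKM. Elane went the other way, with a log2 fold change of 2.03 (adjusted p = 0.0726 from limma), and Mpo stayed near 0 (-0.006). Of 8 erythroid markers 5 were above 0 and 0 called, with sums of 365 to 496 FPKM and 262 to 280 FPKM. Of 7 megakaryocyte and platelet markers 4 were above 0 and 2, Gp1bb and Treml1, were called higher, with sums of 119 to 141 FPKM and 149 to 159 FPKM, and Gp6 was listed at 0 in all libraries. Of 3 T and NK cell markers tested 2 were above 0 and 0 called, with sums of 361 to 781 FPKM and 771 to 791 FPKM, nearly all of it Nkg7. Of 10 HSC genes tested 8 were below 0 and 0 called, with sums of 494 to 725 FPKM and 463 to 480 FPKM, and of the progenitor markers Cd34, Flt3 and Cd48 (the gate excludes Cd34 and Flk2 but does not use Cd48) 2, Cd34 and Cd48, were below 0 and 0 called, with sums of 555 to 1033 FPKM and 505 to 517 FPKM. The part of other cells in the values of complex I genes was not tested.

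Some members are less certain than others. Copies named Ndufb4c, Ndufa11b, Ndufs6b and Ndufab1-ps in the annotation could have taken or given reads for Ndufb4, Ndufa11, Ndufs6 and Ndufab1. Exons of 19 of the 45 Nduf genes overlap another annotated gene, on the opposite strand in 17 and on the same strand in 3 (Ndufb2, Ndufb8 and Ndufb9). Libraries were stranded, but whether reads were counted by strand is not given in the sources used here. Exons of Ndufs1 overlap those of Eef1b2 on the opposite strand.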

How the data were processed

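RNA-seq values of 6 libraries of mouse BM HSCs were used, 3 control and 3 IGF1, grouped by sample title. RNA was extracted with RNeasy Micro kits, and TruSeq Stranded mRNA libraries were sequenced on a NovaSeq. For each gene symbol the authors deposited a single value per library, taken here as FPKM because the values are not whole, sum differently in each library and rise in whole steps within a gene; the unit is not named. The submitters' processing notes name fastp, HISAT2, StringTie, GRCm38 and mm10, whereas the paper names fastp and RSEM; the annotation is not given in the sources used here. Dose and day come from the paper.

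The test covered the 10449 genes that reached 1 FPKM in 3 or more libraries. It used limma 3.58.1 (lmFit, eBayes with a trend; R 4.3.3) after a log2(FPKM + 1) transformation, with p-values adjusted by Benjamini-Hochberg over all of them. The thresholds, a fold change over 2 and an adjusted p under 0.05, are those of the paper, whose count-based test was not repeated here. An exact permutation test of a single gene, 2-sided, cannot go below p = 0.1 here. Steps of FPKM gave whole reads, within 0.02 reads, for 14838 of 14838 rows above 0 in at least 2 libraries, and for 12% of 4000 rows with jittered values. The recovered reads were used for depth, for pairs of libraries and for voom, an alternative chosen after seeing the data. Implied length is the step size turned into bases, and its rank correlation with the length of reference transcripts was 0.83. Trends on length and GC content were removed with loess (span 0.3). The fit and the recovery of reads were tested on simulated data.

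Alternatives were 75th percentile, median-of-ratios and quantile scaling, trend removal, other pseudocounts and filters, no variance trend, library weights, a replicate block and leaving out each library. Members and lists were chosen with earlier results of these data known. A core gene is counted in its class but not reported here on its own. Named genes are the other core genes, assembly factors, all called members, the 6 highest and 4 lowest accessory fold changes, rows kept apart or not tested and, outside the Nduf names, those called and the 3 largest changes. Other members named in passing were chosen after their values were seen. Gene symbols were used as given; 0 columns of other samples were present.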

Additional observations from a re-analysis of the deposited data

How the results depend on the processing

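Calls depended on which libraries were kept. All genes called numbered 207 higher and 484 lower, and leaving out single libraries gave 0 to 1281 higher and 0 to 2157 lower. It gave 0 to 2 core, 0 to 21 accessory and 0 to 1 assembly genes called higher and 0 to 1 core genes called lower. The counts of 0 came with every library but control replicate 2, with limma, where 233 to 386 genes higher and 450 to 795 lower passed an unadjusted p under 0.05 and the fold threshold. Class medians then ranged from -0.11 to 0.051 (core) and from -0.27 to -0.12 (assembly). The replicate numbers of the labels did not pair libraries: correlations between the deviations of same-numbered libraries were -0.057 to 0.0057, and not every library correlated best with its own number. With the number as a replicate block 0 genes were called higher and 0 lower (680 and 1100 at an unadjusted p), Ndufs1 included (adjusted p = 0.0851 from limma), so 0 core genes. Library weights called 1276 genes higher and 2159 lower, 2 core, 21 accessory and 1 assembly gene higher, with medians of 0.046 (core) and -0.13 (assembly).

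Over all genes, higher and lower counts were 654 and 1476 by adjusted p alone (1 assembly factor, Ndufaf7, lower), 403 and 213 with 75th percentile scaling (65.4% higher, against 29.96%; 1 accessory gene higher), 66 and 157 with a pseudocount of 5 and 109 and 265 without a filter. The lower count was 282 with median-of-ratios scaling, 319 with quantile normalization and 130 with length and GC trends removed, and the higher count was 380 with voom, chosen after seeing the data. The median of all genes moved from -0.18 to 0.063 (75th percentile), -0.019 (median-of-ratios), -0.020 (quantile), -0.049 (trends removed) and -0.038 (no filter). Relative to it the accessory median was 1.09 in the report, 1.12 with 75th percentile scaling, 0.61 with quantile normalization and 0.07 with trends removed. With trends removed and control replicate 2 left out as well, also chosen after seeing the data, 1014 genes were higher and 905 lower, 5 accessory and 1 assembly gene higher, and medians were -0.069 (all genes), -0.0095 (accessory) and 0.32 (assembly).

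The core median was 0.23 (75th percentile) and 0.14 (median-of-ratios), the accessory median 0.025 (trends removed) and the assembly median 0.0030 (75th percentile), -0.088 (median-of-ratios), 0.036 (quantile) and 0.19 (trends removed). Some genes changed sign. Most lay near 0 in the main fit, but Ndufa3 (1.39) and 1810043H04Rik (1.03) did not. With 75th percentile and median-of-ratios scaling log2 fold changes were 0.25 and 0.16 for Ndufs3, 0.23 and 0.14 for Ndufv1, 0.21 and 0.11 for Ndufv2 and 0.17 and 0.080 for Ndufa10; Ndufaf6 had 0.0030 with the former. With library weights they were 0.16 for Ndufs3, 0.024 for Ndufv1 and 0.046 for Ndufv2. Leaving out single libraries gave -0.11 to 0.15 for Ndufs3, -0.086 to 0.025 for Ndufv1, -0.13 to 0.051 for Ndufv2 and -0.089 to 0.13 for Ndufaf2. With quantile normalization they were 0.016 for Ndufaf1, 0.036 for Ndufaf4, 0.029 for Ndufaf6 and -0.72 for Ndufa4. With trends removed they were 0.32 for Ndufv2, -0.11 for Ndufa3, -0.44 for Ndufb6, -0.039 for Ndufab1, -0.53 for Ndufaf2, 0.43 for Ndufaf4, 0.19 for Ndufaf7, -0.75 for Ndufa4 and -0.30 for 1810043H04Rik. The causes were not tested. Of 486 values of 27 genes under 18 alternatives, 417 kept their direction and their side of the thresholds. Ndufs1 ranged from -2.09 to -1.03 with no library left out and was lost there only with the replicate block.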
